A study of Mus musculus with 6 samples.

Results

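Semaphorins, plexins and neuropilins were measured in single-cell transcriptomes of the aged mouse lung. The family was taken by gene symbol and held 31 of the 31054 genes in the count matrices: 7 class 3 semaphorins, 6 of class 4, 2 of class 5, 4 of class 6, the class 7 gene Sema7a, 9 plexins and 2 neuropilins. Lungs came from male C57BL/6 mice aged 21 months. The 3 mice labelled p16-DTR carried p16-CreERT2 and R26-LSL-DTR, and the 3 control mice carried p16-CreERT2 without the receptor allele. In this system the p16 promoter drives a tamoxifen-dependent Cre, which opens a diphtheria toxin receptor in cells where that promoter is active, and the toxin is meant to remove them. Both groups received tamoxifen (TAM) for 5 days and, 2 weeks later, diphtheria toxin (DT) for 5 days, and lungs were collected after 2 weeks of recovery, so both had the Cre, the drug and the toxin. Each lung gave 1 library, prepared from 20000 sorted CD45-negative and 9000 CD45-positive cells. Cell numbers per class are therefore set in part by the sort.

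Semaphorins are secreted or membrane-bound guidance proteins that were first studied as repellents of growing axons. Plexins are their signalling receptors, and neuropilins are co-receptors that bind most class 3 semaphorins and also members of the VEGF family. In the lung they act on blood and lymphatic vessels, alveolar epithelium and leukocytes as well as nerves.

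Libraries held 13482 to 17332 barcodes and 254200305 to 344421685 UMIs, and 85582 cells were retained. Of these, 86.84% were placed in 32 cell classes by marker genes that held no family member. Lung identity was checked by alveolar type 2 cells, gated on surfactant genes, which numbered 100 to 166 per library. Levels are UMIs of a gene per 1000000 UMIs of the class in a library (UPM), and are given for the 29 classes with at least 10 cells in every library. The gene that the model targets, Cdkn2a (which encodes p16), stood at 6.70, 8.51 and 7.19 UPM in all retained cells of p16-DTR-labelled libraries and at 1.19, 2.60 and 2.86 in control. It was thus higher in every library labelled p16-DTR, with a log2 fold change of 1.81 ± 0.32 (SE) and an adjusted p of 0.133 (edgeR quasi-likelihood test). The direction of Cdkn2a in these sums is opposite to the labelled removal, so groups are named by their labels throughout. Sums over all retained cells also move with cell numbers per class, and the part of these numbers was not tested. The tdTomato entry of the matrices, a fluorescent reporter, stood at 0.309, 0.239 and 0.303 UPM in p16-DTR-labelled libraries (225 UMIs). It had 0 UMIs in every control library, a count that does not exclude a low level there. Barcodes found in more than 1 library numbered 1055 of 93313.

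Sema3d, Sema3a, Sema3e and Sema3c lie in this order on the plus strand of chromosome 5 (GRCm38), and each had a different set of cells. From the start of Sema3d to the end of Sema3c the stretch measured 5.35 Mb, with 0.536 Mb between Sema3d and Sema3a, 0.423 Mb between Sema3a and Sema3e and 3.32 Mb between Sema3e and Sema3c. The 250 bases before the RefSeq start of each gene (GRCm38.p6, 5′ to 3′) are shown because the genes are linked and their levels by class differed. Capitals mark GGAA or its reverse complement TTCC, the core read by ETS factors, which are abundant in endothelium.
Sema3d, chr5:12382916-12383165, plus strand: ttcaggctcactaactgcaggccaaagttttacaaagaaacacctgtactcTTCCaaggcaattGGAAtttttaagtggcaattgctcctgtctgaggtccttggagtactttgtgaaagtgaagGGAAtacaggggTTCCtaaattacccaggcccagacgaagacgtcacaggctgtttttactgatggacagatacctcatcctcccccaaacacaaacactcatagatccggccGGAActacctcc
Sema3a, chr5:13396534-13396783, plus strand: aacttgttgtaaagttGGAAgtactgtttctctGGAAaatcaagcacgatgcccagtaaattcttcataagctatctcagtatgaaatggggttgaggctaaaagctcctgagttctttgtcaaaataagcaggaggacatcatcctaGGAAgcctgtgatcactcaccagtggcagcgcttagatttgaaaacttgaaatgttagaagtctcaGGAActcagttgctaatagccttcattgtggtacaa
Sema3e, chr5:14025026-14025275, plus strand: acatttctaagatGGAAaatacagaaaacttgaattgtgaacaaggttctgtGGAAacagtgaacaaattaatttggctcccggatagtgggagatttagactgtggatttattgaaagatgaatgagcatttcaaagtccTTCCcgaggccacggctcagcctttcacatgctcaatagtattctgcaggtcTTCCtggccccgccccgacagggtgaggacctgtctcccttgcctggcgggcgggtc
Sema3c, chr5:17574566-17574815, plus strand: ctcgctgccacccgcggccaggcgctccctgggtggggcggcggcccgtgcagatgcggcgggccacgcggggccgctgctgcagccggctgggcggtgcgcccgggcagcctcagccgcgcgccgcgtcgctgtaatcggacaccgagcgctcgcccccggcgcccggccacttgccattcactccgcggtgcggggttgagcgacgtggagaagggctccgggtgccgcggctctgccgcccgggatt
The core occurred 5 times before Sema3d, 4 times before Sema3a, 4 times before Sema3e and 0 times before Sema3c, with no overlapping matches. On both strands it was found in 93.4% of the 32851 windows of this length before RefSeq starts, with a median of 3 matches, so its presence does not set these windows apart. Base composition differed more: GC content was 46.8%, 40.8% and 48.0% before Sema3d, Sema3a and Sema3e and 78.4% before Sema3c, against a median of 52.4% over all windows. The dinucleotide CG occurred 4, 2 and 7 times in the first 3 windows and 39 times before Sema3c, against a median of 6. The RefSeq starts of Sema3a and Sema3c lie inside the longer gene models of GENCODE M21, so each of these windows belongs to 1 of its gene's possible starts. RefSeq windows were matched for 26 of the 31 genes.

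Sema3d was a lymphatic and mesothelial transcript. In lymphatic endothelium it stood at 968, 1111 and 1123 UPM in p16-DTR-labelled libraries and at 735, 856 and 984 in control. In mesothelial cells, the lining of the pleura, it averaged 664.5 ± 80.5 (SD, n = 6), and in adventitial fibroblasts 180.5 ± 26.8. Venous endothelium, by contrast, held 0.515.

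Sema3a, a repellent of axons and of endothelial cells, was highest in alveolar type 1 cells, the flat epithelium of gas exchange, and in lymphatic endothelium. In alveolar type 1 cells it stood at 922, 1009 and 784 UPM in p16-DTR-labelled libraries and at 1844, 1453 and 1087 in control. In lymphatic endothelium the values were 532, 716 and 834 against 484, 549 and 598. The next class, mesothelial cells, averaged 37.2. Type 1 cells numbered 23 to 63 per library, too few for the test between groups, which needed 50.

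Sema3e, the ligand of Plxnd1, was an epithelial transcript. It stood at 2069, 1912 and 1966 UPM in alveolar type 1 cells of p16-DTR-labelled libraries and at 2366, 2788 and 2508 in control. Ciliated cells followed with 749.9 ± 47.0 (SD, n = 6). Alveolar macrophages, with 14 to 27 cells per library, averaged 96.7 ± 37.6, and venous endothelium 47.9 ± 25.1.

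Sema3c, which signals through neuropilins and plexins in vessel growth, belonged to general capillary endothelium. It stood there at 4381, 4301 and 3607 UPM in p16-DTR-labelled libraries and at 4625, 4341 and 4648 in control. Venous endothelium had 1964 ± 195 (SD, n = 6), mesothelial cells 999.7 ± 199 and aerocytes 285.2 ± 39.7. Sema3c also averaged 9.30 in classical monocytes, 10.1 in B cells and 12.1 in CD8 T cells. Whether free RNA contributes to such low levels was not tested.

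**Figure D1:**
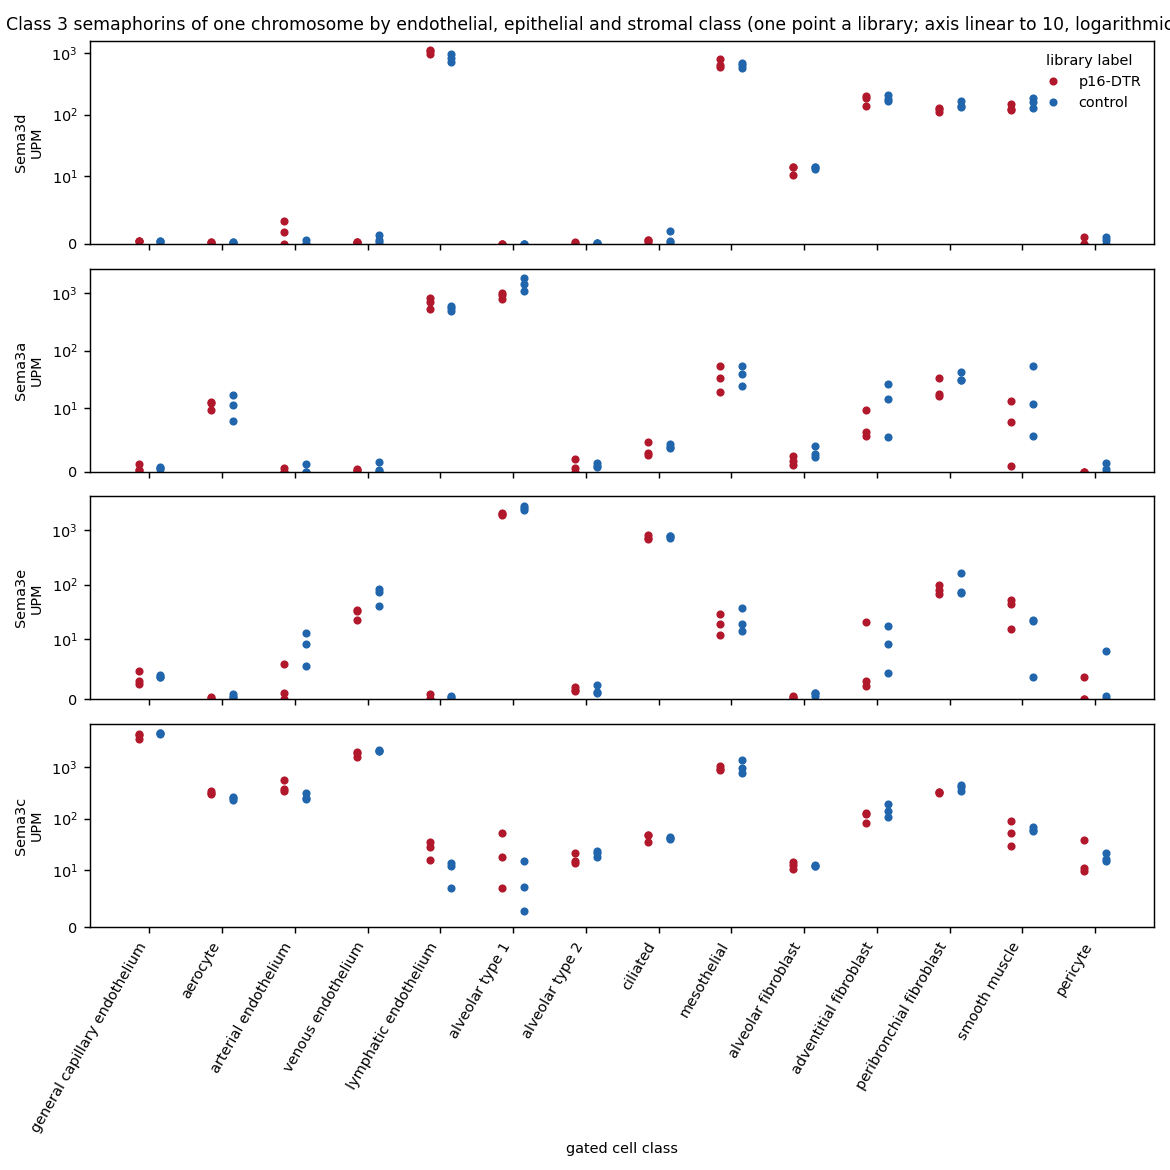
Levels of Sema3d, Sema3a, Sema3e and Sema3c in UPM (vertical axes, linear to 10 and logarithmic above) in 14 endothelial, epithelial and stromal classes (horizontal axis), with 1 point per library and the group label in colour. Sema3d and Sema3a share the lymphatic class, Sema3a and Sema3e share alveolar type 1 cells, and Sema3c peaks in general capillary endothelium at 3607 to 4648.

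The other secreted ligands divided between vessels and type 1 epithelium. Sema3g, an endothelial class 3 ligand, averaged 511.2 ± 65.5 UPM (SD, n = 6) in arterial endothelium and 364.2 ± 25.9 in general capillary endothelium, and 6.66 ± 2.96 in venous endothelium. Sema3f, which prefers Nrp2, averaged 396.8 ± 40.7 in aerocytes, the second capillary type, which spans the gas exchange surface. Sema3b was highest in alveolar type 1 cells at 144.5 ± 36.0, against 19.1 ± 2.05 in aerocytes.

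Among the membrane-bound ligands, classes 4 and 7 included the genes known from leukocytes. Sema4d (CD100), a ligand of Plxnb1, averaged 325.2 ± 26.2 UPM (SD, n = 6) in nonclassical monocytes, 279.4 ± 42.0 in gamma-delta T cells and 2.69 in venous endothelium. Sema4a averaged 151.0 in neutrophils (132.1 to 175.4 over libraries) and 7.28 in plasma cells, and Sema4b was highest in B cells (60.5 ± 8.59) and close to that in gamma-delta T cells (59.8 ± 11.5), a gap inside the spread over libraries. Sema4c was highest in pericytes, the mural cells of capillaries, at 106.2 ± 26.7, and overlapped lymphatic endothelium at 97.3 ± 16.1.

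Sema4g was highest in pericytes in every library, at 28.3 ± 4.58 UPM (SD, n = 6). Type 2 innate lymphoid cells, with 11 to 27 cells per library, averaged 2.17 ± 5.32, an SD above the mean. Peribronchial fibroblasts were level with them at 2.17 ± 1.26, so the next class is not settled. Sema4f averaged 38.9 ± 9.74 in gamma-delta T cells and 35.8 ± 8.11 in alveolar type 2 cells, which did not differ beyond their spread. Sema7a, the membrane-anchored ligand of Plxnc1, was an aerocyte transcript in these lungs: it averaged 421.3 ± 50.1 there and 135.1 ± 41.5 in general capillary endothelium.

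In classes 5 and 6 the highest class of each gene was smooth muscle or an endothelial class. Sema5a averaged 718.0 ± 103 UPM (SD, n = 6) in smooth muscle and 346.2 ± 103 in aerocytes. Mesothelial cells held 249.1 ± 79.4 and alveolar fibroblasts 221.3 ± 23.0. Sema5b and Sema6c were also highest in smooth muscle, at 12.6 ± 7.76 and 7.39 ± 2.71. Both overlapped their second class, arterial endothelium for Sema5b (5.92 ± 2.93) and peribronchial fibroblasts for Sema6c (5.05 ± 1.74). Sema6a, a partner of A-type plexins, averaged 1523 ± 171 in lymphatic endothelium and 1485 ± 178 in aerocytes, which overlapped. Sema6d averaged 473.1 ± 62.0 in general capillary and 388.7 ± 37.5 in venous endothelium, and Sema6b 62.4 ± 7.31 in venous endothelium.

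The neuropilins differed between blood and lymphatic endothelium. Nrp1, the co-receptor of Sema3a and VEGF-A, stood at 2476, 2896 and 2325 UPM in aerocytes of p16-DTR-labelled libraries and at 2931, 2821 and 2848 in control. Nrp2, which binds Sema3f and the lymphatic growth factor VEGF-C, stood at 1446, 1660 and 1581 in lymphatic endothelium against 1613, 1378 and 1482. In lymphatic endothelium Nrp1 was at 6.16 ± 3.68 (SD, n = 6), and in aerocytes Nrp2 was at 1.56.

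The A-type plexins are signalling partners of neuropilins. Plxna2 averaged 571.4 ± 134 UPM (SD, n = 6) in aerocytes, 559.0 ± 87.1 in venous and 555.3 ± 98.7 in arterial endothelium, an order that did not hold beyond the spread. Plxna4 averaged 638.8 ± 117 in mesothelial cells and 554.9 ± 103 in arterial endothelium. Plxna1 was highest in aerocytes at 196.1 ± 9.97, and Plxna3 did not average above 5.73, its value in peribronchial fibroblasts.

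Plxnd1, the Sema3e receptor, averaged 362.2 ± 46.6 UPM (SD, n = 6) in arterial endothelium, and the next class was gamma-delta T cells at 145.7 ± 14.3. Plxnb2 was highest in ciliated cells at 203.8 ± 5.89 and Plxnb1 in pericytes at 60.2 ± 5.61, with ciliated cells at 55.5 ± 4.53. Plxnb3 averaged 2.17 ± 0.742 in nonclassical monocytes, its highest class. Plxnc1, the Sema7a receptor, averaged 164.4 ± 7.17 in alveolar fibroblasts and 159.6 ± 41.4 in gamma-delta T cells. Of the 31 genes, 13 had a highest class whose lowest library exceeded every library of the second class. The share over all genes was not computed, so this count is not read as a trait of the family.

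**Figure D2:**
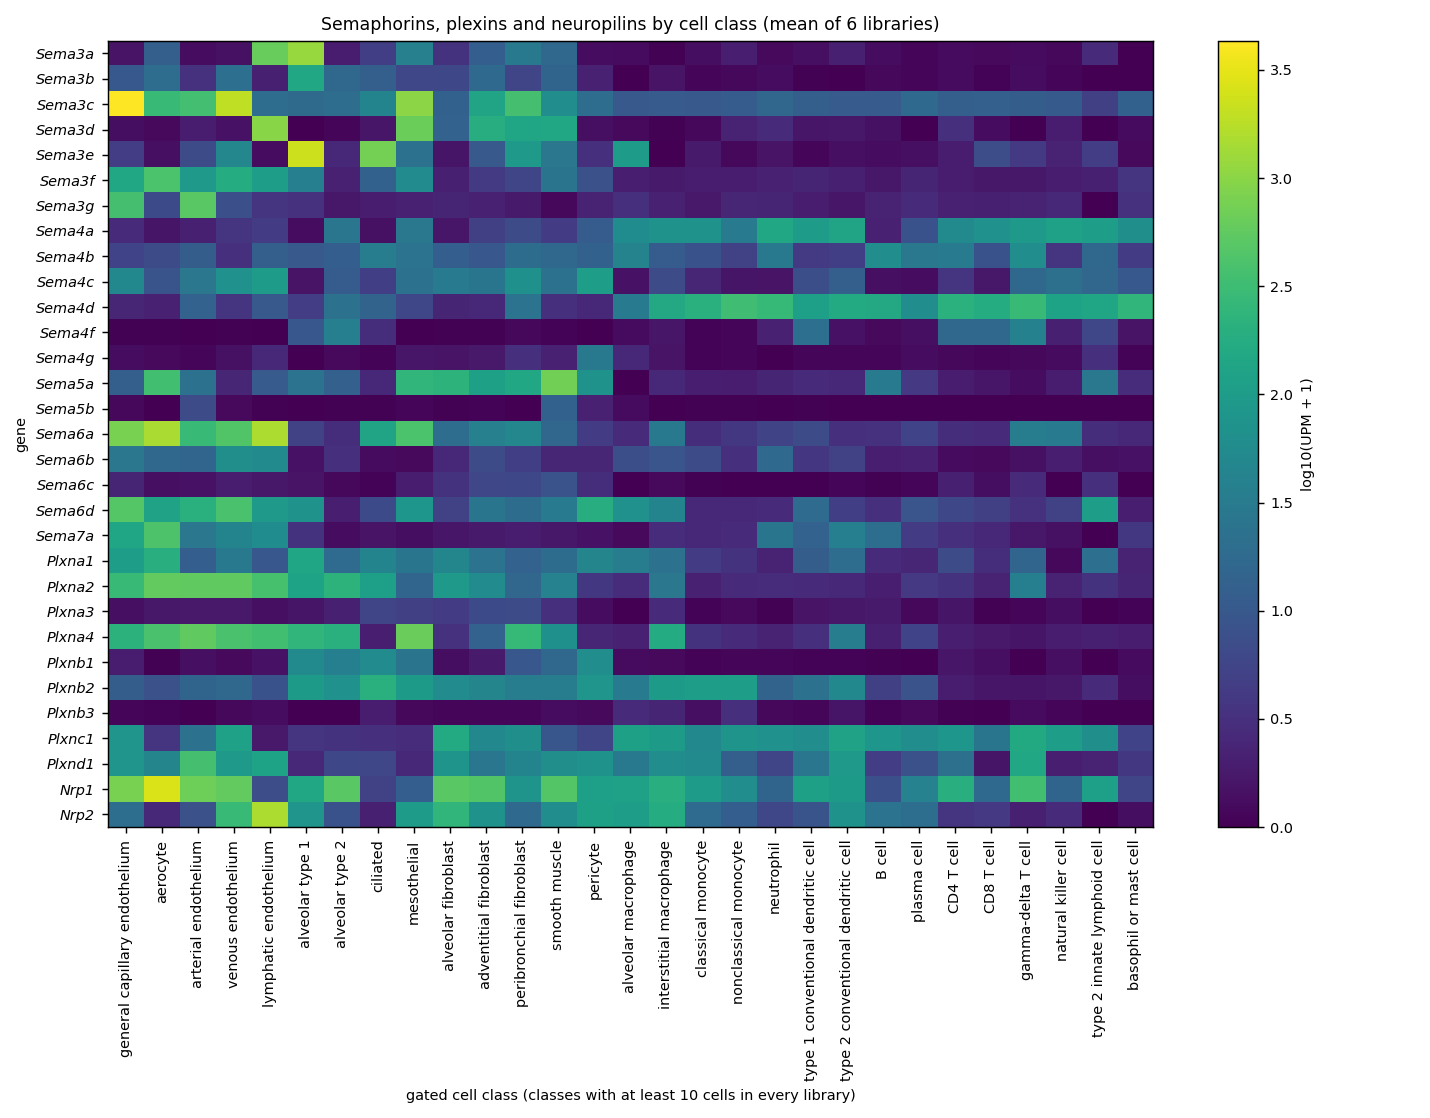
Mean level over 6 libraries, as log10(UPM + 1) by colour, of 31 genes (rows) in 29 gated cell classes (columns). The brightest squares are Sema3c in general capillary endothelium (4317), Nrp1 in aerocytes (2716) and Sema3e in alveolar type 1 cells (2268), while Sema4d averages 325.2 in nonclassical monocytes and 2.69 in venous endothelium.

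Paired cell classes of the same libraries were compared with the library as a block in 9 pairs, which held 29 of the 31 genes and not every class named above. A gene entered through either class of a pair. Over these pairs, 146 of 190 tests of family genes passed an adjusted p of 0.05 (76.8%), against 61.2% of tests over all genes. Because most genes differ between cell types, sizes say more than counts.

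Aerocytes and general capillary cells differed in 25 of 26 family genes tested (12 higher and 13 lower in aerocytes), where 71.4% of all genes passed and 35.5% were higher. Sema3c was 3.86 ± 0.10 (SE) lower on the log2 scale in aerocytes (edgeR quasi-likelihood test, adjusted p = 1.19e-11). Sema3g was lower by a log2 difference of -5.97 ± 0.10 and Plxnc1 by -4.84 ± 0.12. Sema5a had the opposite direction, with 346.2 UPM in aerocytes and 11.7 in general capillary cells (4.95 ± 0.15). Nrp1, Sema3f and Sema7a were higher in aerocytes by 1.80 ± 0.04, 1.51 ± 0.04 and 1.75 ± 0.08. The ligand Sema7a and its receptor Plxnc1 stood at 421.3 and 2.63 UPM in aerocytes and at 135.1 and 77.4 in general capillary cells, so that general capillary cells held both.

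Arterial and venous endothelium differed in 19 of 21 genes (7 higher and 12 lower in arteries), where 38.8% of all genes passed and 19.6% were higher. Sema3g was 6.28 ± 0.16 (SE) higher in arterial endothelium on the log2 scale (edgeR quasi-likelihood test, adjusted p = 8.40e-13), and Nrp2 was lower, with 7.09 UPM against 282.3 (-5.38 ± 0.18). Plxnd1 was higher in arteries by 1.96 ± 0.07. Plxna2 showed a log2 difference of -0.01 ± 0.07 with an adjusted p of 0.90.

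Lymphatic and venous endothelium differed in 22 of 24 genes (9 higher and 13 lower in lymphatics), where 59.8% of all genes passed and 29.6% were higher. Sema3d and Sema3a averaged 962.7 and 619.0 UPM in lymphatics and 0.515 and 0.468 in veins, so no fold is given. In veins Sema3d rested on 6 UMIs in p16-DTR-labelled libraries and 17 in control, and Sema3a on 6 and 15. Plxnc1 averaged 0.786 in lymphatics and 121.3 in veins. Nrp1 and Sema3c were lower in lymphatics by -6.70 ± 0.17 and -6.88 ± 0.25 (SE, log2). Nrp2 and Sema6a were higher by 2.34 ± 0.10 and 1.67 ± 0.08, and Plxnd1 did not pass (0.32 ± 0.16, adjusted p = 0.107 by the same edgeR test).

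**Figure D3:**
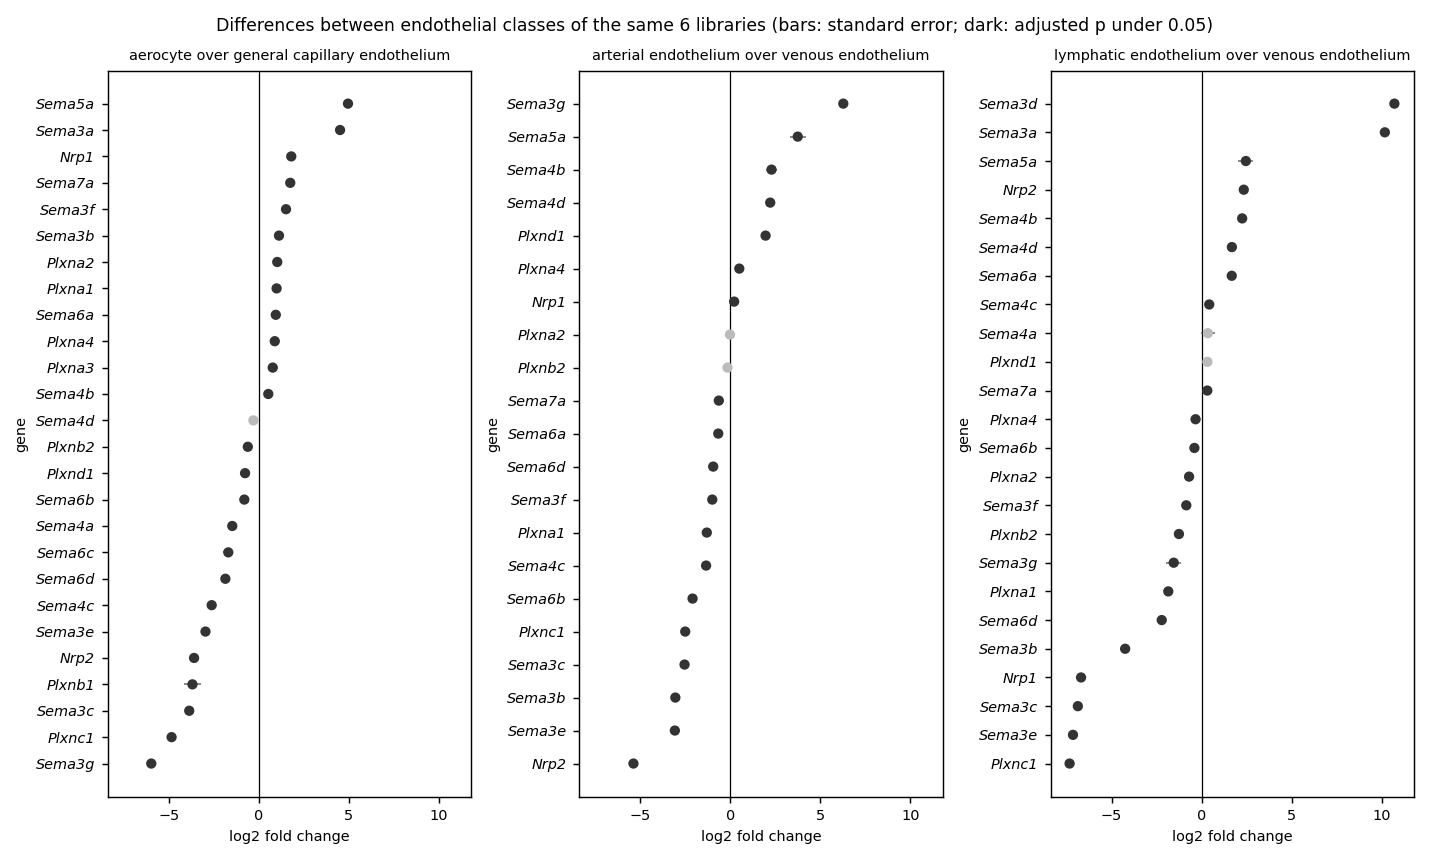
Log2 fold change (horizontal axes) of each family gene tested between 2 endothelial classes of the same 6 libraries, with standard error bars and dark points for an adjusted p under 0.05. Sema3g and Nrp2 sit at opposite ends of the arterial and venous panel (6.28 and -5.38), and Sema3d and Plxnc1 at those of the lymphatic and venous panel, each close to 0 UPM in 1 of the 2 classes, so that the place of these points is imprecise.

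Stromal classes were compared next. Alveolar against adventitial fibroblasts gave 23 of 28 genes past the threshold (9 higher and 14 lower, against 75.0% of all genes and 38.5% higher), with Sema3d lower in alveolar fibroblasts by -3.81 ± 0.06 (SE, log2) and Nrp2 and Plxnc1 higher by 1.78 ± 0.04 and 1.73 ± 0.05. Pericytes against alveolar fibroblasts gave 18 of 28 (8 higher and 10 lower, against 61.8% of all genes and 26.9% higher). Pericytes were higher in Sema6d (5.40 ± 0.12) and lower in Plxnc1 (-5.27 ± 0.13) and Plxna2 (-5.21 ± 0.25). Plxnb1 and Sema4g were also higher in pericytes. They averaged 60.2 and 28.3 UPM there and 0.36 and 0.55 in alveolar fibroblasts, so no fold is given.

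Leukocyte pairs were compared in the same way. CD4 against CD8 T cells gave 7 of 15 (6 higher, against 44.8% of all genes and 24.4% higher), and Nrp1, a marker of thymic regulatory T cells, stood at 192.9 UPM in CD4 and 16.3 in CD8 T cells (3.49 ± 0.16, SE, log2). Natural killer against CD8 T cells gave 7 of 10 (4 higher, against 52.1% of all genes and 26.4% higher). Sema4c was higher by 4.80 ± 0.20, a size that is imprecise because CD8 T cells held 0.70 UPM. Sema6a was higher by 3.91 ± 0.18 and Plxnc1 by 1.78 ± 0.19. The Plxnc1 value pools groups whose natural killer cells averaged 55.3 UPM (p16-DTR label) and 150.6 (control). B cells against CD4 T cells gave 15 of 20 (5 higher, against 71.1% of all genes and 35.4% higher), with Sema4a lower by -5.38 ± 0.13 and Sema5a higher by 5.14 ± 0.12. Classical against nonclassical monocytes gave 10 of 18 (7 higher, against 66.9% of all genes and 34.5% higher), with Plxnd1 higher by 2.23 ± 0.07 and Sema4d lower by -0.67 ± 0.04.

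The labelled groups were compared within the 19 classes that held at least 50 cells in every library. Of 360 tests of family genes, 8 passed an adjusted p of 0.05 (2.22%), 4 higher and 4 lower in p16-DTR-labelled libraries, where 0.652% of tests over all genes passed. The 8 calls were on 7 genes in 6 classes. The libraries of the 2 groups did not overlap in any call, as for 99.1% of all genes even at an adjusted p between 0.05 and 0.1. The calls were Plxnc1 in natural killer cells, Sema3f, Nrp2 and Sema3e in venous endothelium, Sema3f in general capillary endothelium, Sema3c in aerocytes, Sema6d in lymphatic endothelium and Plxna2 in alveolar fibroblasts. By edgeR no semaphorin of classes 4, 5 and 7 was called, while DESeq2 called Sema7a in general capillary cells (log2 fold change 0.71, adjusted p = 6.55e-05), in a fit that called 22 of the 360 pairs and 2.43% of tests over all genes. Over all retained cells together, 0 of 31 genes were called by edgeR (0.0% of 21412 genes), 9 had an unadjusted p under 0.05 (29.0%, against 22.9% of all genes), and DESeq2 called 5 (11.9% of all genes).

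Whether a change in 1 of these 6 classes differed from that in all other retained cells was tested with an interaction term. Of 186 tests of family genes 6 passed (3.23%), where 0.36% passed over all genes. The classes were chosen for a call of a family gene, which can favour the family in these shares. By class, genes passed at 1.14% in natural killer cells, 0.446% in veins, 0.357% in lymphatics, 0.214% in aerocytes, 0.0147% in general capillary cells and 0.0143% in alveolar fibroblasts. Among the 8 calls, Plxnc1 in natural killer cells passed this test and the other 7 did not (adjusted p from 0.0610 to 1.0, edgeR).

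Plxnc1 (chromosome 10, 94790866 to 94944835, minus strand, GRCm38) fell in natural killer cells. It stood at 55.0, 59.6 and 51.3 UPM in p16-DTR-labelled libraries and at 154.6, 169.1 and 127.9 in control, from 478 and 969 UMIs. The 3 p16-DTR-labelled libraries all lay far below control. The log2 fold change was -1.44 ± 0.13 (SE) with an adjusted p of 0.000353 (edgeR quasi-likelihood test), where 0.493% of genes in this class passed. It also passed without any 1 library (adjusted p at most 0.00500). The change differed from that of Plxnc1 in all other retained cells by -1.40 ± 0.14 (adjusted p = 1.99e-07).

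In other lymphocytes Plxnc1 did not pass the adjusted threshold. CD8 T cells held 18.9, 22.4 and 23.5 UPM in p16-DTR-labelled libraries and 24.0, 29.3 and 29.8 in control. The log2 differences were -0.36 ± 0.13 (SE) in CD8, -0.33 ± 0.14 in CD4 and -0.49 ± 0.20 in gamma-delta T cells, with adjusted p of 0.462, 0.308 and 0.779 by the edgeR test. B cells had a difference of 0.26 ± 0.08 (adjusted p = 0.275).

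The markers of natural killer cells were used in the gate, so their presence in both groups was set in advance. Ncr1, 1 of these markers, averaged 783.0 UPM in p16-DTR-labelled libraries and 684.7 in control. Some of these markers differed with no overlap: Klre1 at 1108 and 917.7, Gzma at 8094 and 6743, and Eomes, lower, at 318.0 and 406.4. Of 39 marker lists of other classes, 4 did not overlap between groups in this class. With 3 libraries against 3, some of 39 lists can separate by chance. Such counts, here and in the classes below, were not tested against chance. By themselves they show neither a shift nor its absence. The summed pan-endothelial list ranged from 74.3 to 101.9 against 122.1 to 132.6, the gamma-delta T list from 85.3 to 94.6 against 70.5 to 80.6 and the alveolar type 1 list from 190.0 to 199.9 against 124.4 to 182.7. The alveolar macrophage list ranged from 1.64 to 2.09 against 0.798 to 1.37, with Ear1, Fabp1, Krt79 and Marco at 0. Their part in the result was not tested.

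Sema3f (chromosome 9, 107681500 to 107710475, minus strand) rose in venous and general capillary endothelium. In veins it stood at 211.9, 208.1 and 197.3 UPM in p16-DTR-labelled libraries and at 154.1, 152.5 and 137.3 in control (log2 0.50 ± 0.08, SE, adjusted p = 0.0119, edgeR quasi-likelihood test). In general capillary cells it stood at 172.8, 157.3 and 168.0 against 129.5, 124.8 and 124.7 (0.43 ± 0.05, adjusted p = 0.0272). All genes passed at 3.61% in veins and at 0.486% in general capillary cells. Leaving out any 1 library kept the venous call (adjusted p at most 0.0372). The capillary call did not pass without p16-DTR replicate 1 (0.0600) or 3 (0.0862), or without control replicate 1 (0.0704) or 3 (0.0608).

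Sema3f was tested in 12 classes, and its log2 difference was positive in 11 of them. Aerocytes, where it is highest, held 454.4, 416.0 and 421.2 UPM against 367.7, 377.1 and 344.1, with no overlap (0.28 ± 0.06, SE, adjusted p = 0.0521 by edgeR). Arterial endothelium held 108.8, 95.4 and 106.9 against 72.3, 78.8 and 70.9 (0.48 ± 0.13, adjusted p = 0.186). Neither call of Sema3f differed from the change in all other retained cells (adjusted p = 1.0 for veins and 0.694 for general capillary cells).

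Nrp2 (chromosome 1, 62703285 to 62818695, plus strand), the co-receptor that binds Sema3f, fell in the same venous class. It stood at 218.4, 235.7 and 242.0 UPM in p16-DTR-labelled libraries and at 370.1, 324.5 and 302.8 in control, from 4814 and 8102 UMIs. The log2 fold change was -0.49 ± 0.09 (SE, adjusted p = 0.0218, edgeR quasi-likelihood test). The call was lost without p16-DTR replicate 1 (0.0730), 2 (0.0542) or 3 (0.0632) or without control replicate 1 (0.0594).

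Sema3e (chromosome 5, 14025276 to 14256689, plus strand) also fell in venous endothelium. It stood at 32.1, 33.8 and 22.2 UPM in p16-DTR-labelled libraries and at 84.7, 73.2 and 41.2 in control. Control replicate 3 was the closest to the other group. The log2 fold change was -1.13 ± 0.25 (SE, adjusted p = 0.0421, edgeR quasi-likelihood test), and it passed in 1 of 6 fits that left out a library, the one without control replicate 3 (0.00896), with 0.0789 to 0.139 in the others.

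Venous endothelium also differed in other ways. Its markers Selp and Vcam1, adhesion genes of activated veins, averaged 355.2 and 337.4 UPM in p16-DTR-labelled libraries and 632.1 and 655.7 in control, Vwf 3820 and 3449, and Slc6a2 2510 and 1838. Of 39 marker lists of other classes, 12 did not overlap between groups, 7 higher and 5 lower. The general capillary list summed to 3407 to 4024 in p16-DTR-labelled libraries and 2895 to 3195 in control, and the adventitial fibroblast list to 21.8 to 24.4 against 36.9 to 63.5. Their part in the 3 venous results was not tested.

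The general capillary marker Lpl averaged 320.6 UPM in p16-DTR-labelled libraries and 172.8 in control, Plvap 1019 and 816.3, Cd93 1872 and 1722, and Aplnr 51.8 and 72.3, each with no overlap. In general capillary cells, 11 of 39 other lists did not overlap, 4 higher and 7 lower, among them the venous list at 584.4 to 669.6 against 454.1 to 564.0 and the lymphatic list at 1025 to 1157 against 636.0 to 848.4. Lower were, among others, the adventitial fibroblast list, at 7.90 to 10.1 against 11.4 to 24.2, and the B cell list, at 44.0 to 49.6 against 54.3 to 66.8. Their part in the rise of Sema3f was not tested.

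Sema3c (chromosome 5, 17574281 to 17730268, plus strand) rose in aerocytes, the capillary type where it is low. It stood at 339.5, 296.5 and 317.2 UPM in p16-DTR-labelled libraries and at 234.1, 269.3 and 254.6 in control. The log2 fold change was 0.37 ± 0.07 (SE, adjusted p = 0.0384, edgeR quasi-likelihood test), where 1.14% of genes passed. It was lost without p16-DTR replicate 1 (0.0927) or 3 (0.119), without control replicate 1 (0.156) or 3 (0.119), with counts scaled by library size (0.0545) and with predicted doublets kept (log2 fold change 0.22, adjusted p = 0.170). In general capillary cells, where Sema3c is highest, the groups overlapped.

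In aerocytes 9 of 39 other marker lists did not overlap, 6 higher and 3 lower. Among them were the nonclassical monocyte list at 1111 to 1228 against 915.3 to 991.8 and the alveolar fibroblast list at 26.3 to 45.6 against 47.3 to 77.2. The pan-immune list stood at only 17.5 to 22.7 against 14.2 to 18.9 and overlapped. The aerocyte marker Ednrb averaged 2034 and 2210 with no overlap. The general capillary list did overlap, at 333.5 to 443.4 against 323.5 to 352.9. Their part in the rise of Sema3c was not tested.

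Sema6d (chromosome 2, 124089969 to 124667770, plus strand), a ligand of Plxna1, rose in lymphatic endothelium. It stood at 98.9, 121.9 and 114.3 UPM in p16-DTR-labelled libraries and at 69.9, 76.5 and 69.8 in control, from 1019 and 606 UMIs. The log2 fold change was 0.63 ± 0.11 (SE, adjusted p = 0.0417, edgeR quasi-likelihood test), where 0.341% of genes passed. It passed in 1 of 6 fits that left out a library, the one without p16-DTR replicate 1 (0.00712), and ranged from 0.0848 to 0.181 in the others. With doublets kept it was 0.0844.

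The class's own marker Lyve1 stood at 1200, 1354 and 834.6 UPM in p16-DTR-labelled libraries and at 1399, 1818 and 1757 in control, lower with no overlap, while its marker Flt4 was higher with no overlap (1067 to 1165 against 970.9 to 1064). Of 39 other marker lists, 8 did not overlap in lymphatic endothelium, 3 higher and 5 lower. The platelet list moved most of these, at 3.31 to 5.97 against 8.06 to 67.1. The pan-mesenchymal list summed to 702.6 to 761.2 in p16-DTR-labelled libraries and 462.1 to 611.5 in control, and the adventitial fibroblast list to 13.4 to 32.8 against 38.7 to 51.6. The alveolar macrophage list summed to 2.21 to 5.07 against 5.13 to 8.33, with Fabp1, Krt79 and Marco at 0. Their part in the result was not tested.

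Plxna2 (chromosome 1, 194618218 to 194816869, plus strand), a receptor of class 3 and class 6 semaphorins, fell in alveolar fibroblasts, the lipid-bearing fibroblasts of the alveolar wall. It stood at 67.8, 65.7 and 48.1 UPM in p16-DTR-labelled libraries and at 146.6, 97.7 and 117.6 in control. The log2 fold change was -0.97 ± 0.17 (SE, adjusted p = 0.0456, edgeR quasi-likelihood test), where 1.70% of genes passed. It passed in 1 of 6 fits that left out a library, the one without control replicate 2 (0.0333), with 0.0533 to 0.143 in the others, and was at 0.0516 in Leiden classes.

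In aerocytes Plxna2 had the opposite sign, with 604.5, 643.4 and 772.6 UPM against 383.9, 508.4 and 515.3 and no overlap (0.56 ± 0.12, SE, adjusted p = 0.0545 by edgeR). Of the class's own markers, Scube2 averaged 394.3 and 582.6 and Itga8 2132 and 2657 in p16-DTR-labelled libraries and control, also lower with no overlap, while Npnt was higher with no overlap (2450 to 2523 against 2408 to 2427). Among 39 other marker lists in alveolar fibroblasts, 12 did not overlap, 8 higher and 4 lower. The pan-mesenchymal list summed to 3230 to 3915 against 2677 to 2899 and the peribronchial fibroblast list to 32.7 to 40.3 against 23.8 to 30.8. Lower were the arterial list, at 139.8 to 175.2 against 176.4 to 208.0, the venous list, at 737.8 to 824.3 against 833.9 to 892.4, and the interstitial macrophage list, at 15.2 to 17.9 against 21.6 to 32.7. Of the other endothelial lists, the general capillary list was higher with no overlap, at 47.1 to 66.2 against 39.3 to 42.4. The pan-endothelial list (21.2 to 26.0 against 17.3 to 23.2), the aerocyte list and the lymphatic list overlapped. Aerocytes, arterial and venous endothelium are classes of high Plxna2 (above). The part of these lists and markers in the fall of Plxna2 was not tested.

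**Figure D4:**
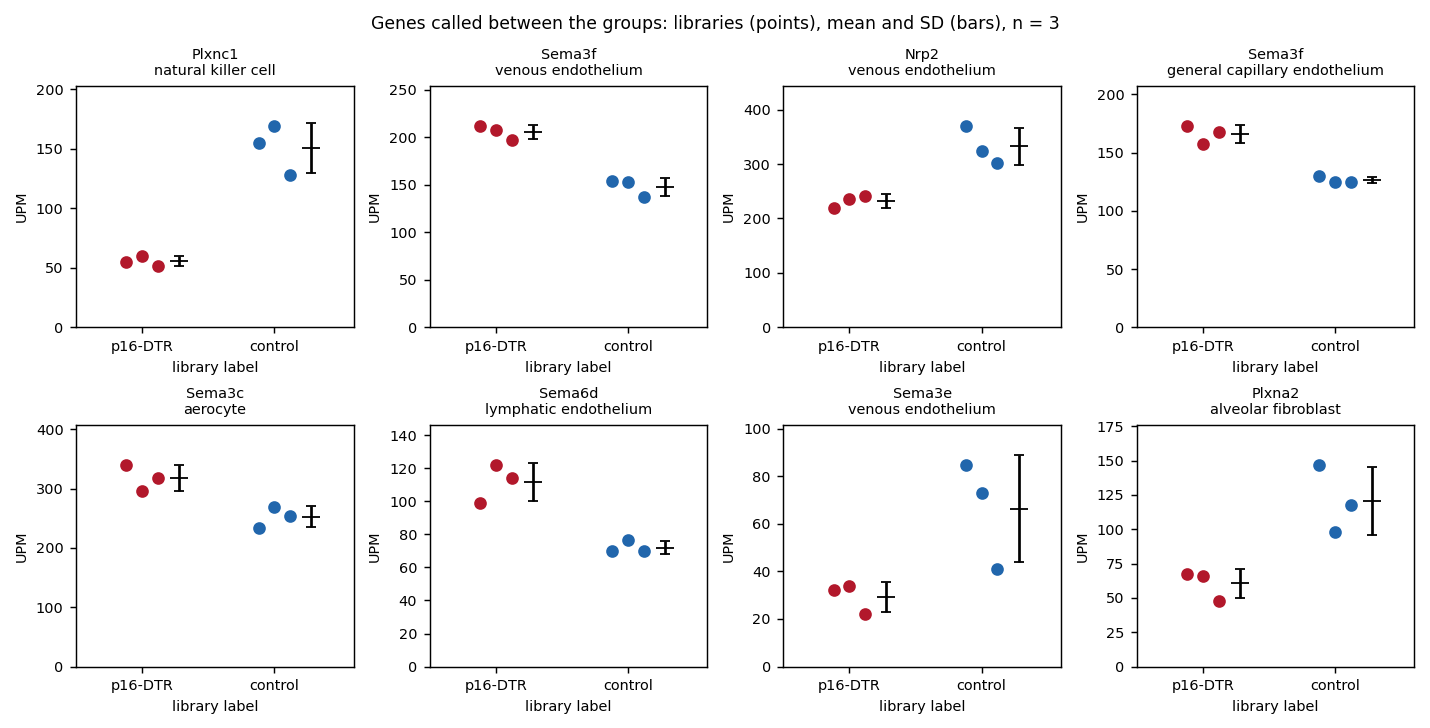
UPM (vertical axes from 0) of the 8 called gene and class pairs, with 1 point per library and the mean with SD (n = 3) beside each group. No panel has overlapping groups, as for 99.1% of all genes even at an edgeR adjusted p between 0.05 and 0.1. The ratio of group means is largest for Plxnc1 in natural killer cells, and control replicate 3 comes nearest to the other group for Sema3e.

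Adjusted p-values between 0.05 and 0.1 (edgeR) were found for 10 of 360 gene and class pairs (2.78%, against 1.74% of tests over all genes), 8 higher and 2 lower in p16-DTR-labelled libraries, where 44.2% over all genes in this range were higher. They were chosen after their values were seen, and groups did not overlap in any, as for 99.1% of all genes in this range. Sema7a in general capillary cells stood at 145.3, 141.6 and 210.0 UPM in p16-DTR-labelled libraries and at 100.3, 108.6 and 104.7 in control (0.71 ± 0.15, SE, log2, adjusted p = 0.0621, edgeR). Sema3c in lymphatic endothelium stood at 35.0, 28.7 and 15.8 against 11.8, 13.5 and 6.90 (1.29 ± 0.30, adjusted p = 0.0993). Plxnd1 in the same class stood at 125.2, 160.2 and 174.6 against 108.6, 83.9 and 112.4 (0.58 ± 0.14, adjusted p = 0.0993). The others were Sema3f (above) and Plxna2 in aerocytes (0.56, adjusted p = 0.0545), Plxnb2 (0.30, 0.0685), Plxna4 (0.59, 0.0934) and Sema6a (-0.33, 0.0975) in alveolar fibroblasts, Sema7a in veins (0.40, 0.0956) and Sema6c in general capillary cells (-0.66, 0.0978).

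The other members are given by their counts. Nrp1 was tested in 19 classes and passed in 0, with log2 differences from -0.44 to 1.24 and a smallest adjusted p of 0.316 (edgeR). Sema4d was lower in 14 of 18 classes, Sema6a in 12 of 18 and Plxnd1 in 12 of 17, with 0 calls each by edgeR and all classes taken from the same 6 libraries. Over all retained cells Sema4d had the opposite sign, at 68.6 and 57.7 UPM in p16-DTR-labelled libraries and control with no overlap (log2 0.30 ± 0.09, SE, adjusted p = 0.155 by edgeR). Sema4a, Sema4b and Sema7a were higher in 8 of 14, 11 of 18 and 8 of 11 classes, also without a call by edgeR. Of these genes, DESeq2 called Sema6a in natural killer cells (adjusted p = 0.0277) and alveolar fibroblasts (0.0367), Plxnd1 in lymphatic endothelium (0.0215) and alveolar fibroblasts (0.0321), and Sema7a in general capillary cells. Per class, the median log2 difference over family genes ranged from -0.10 in adventitial fibroblasts to 0.19 in lymphatic endothelium, against -0.003 and -0.001 over all genes tested there.

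**Figure D5:**
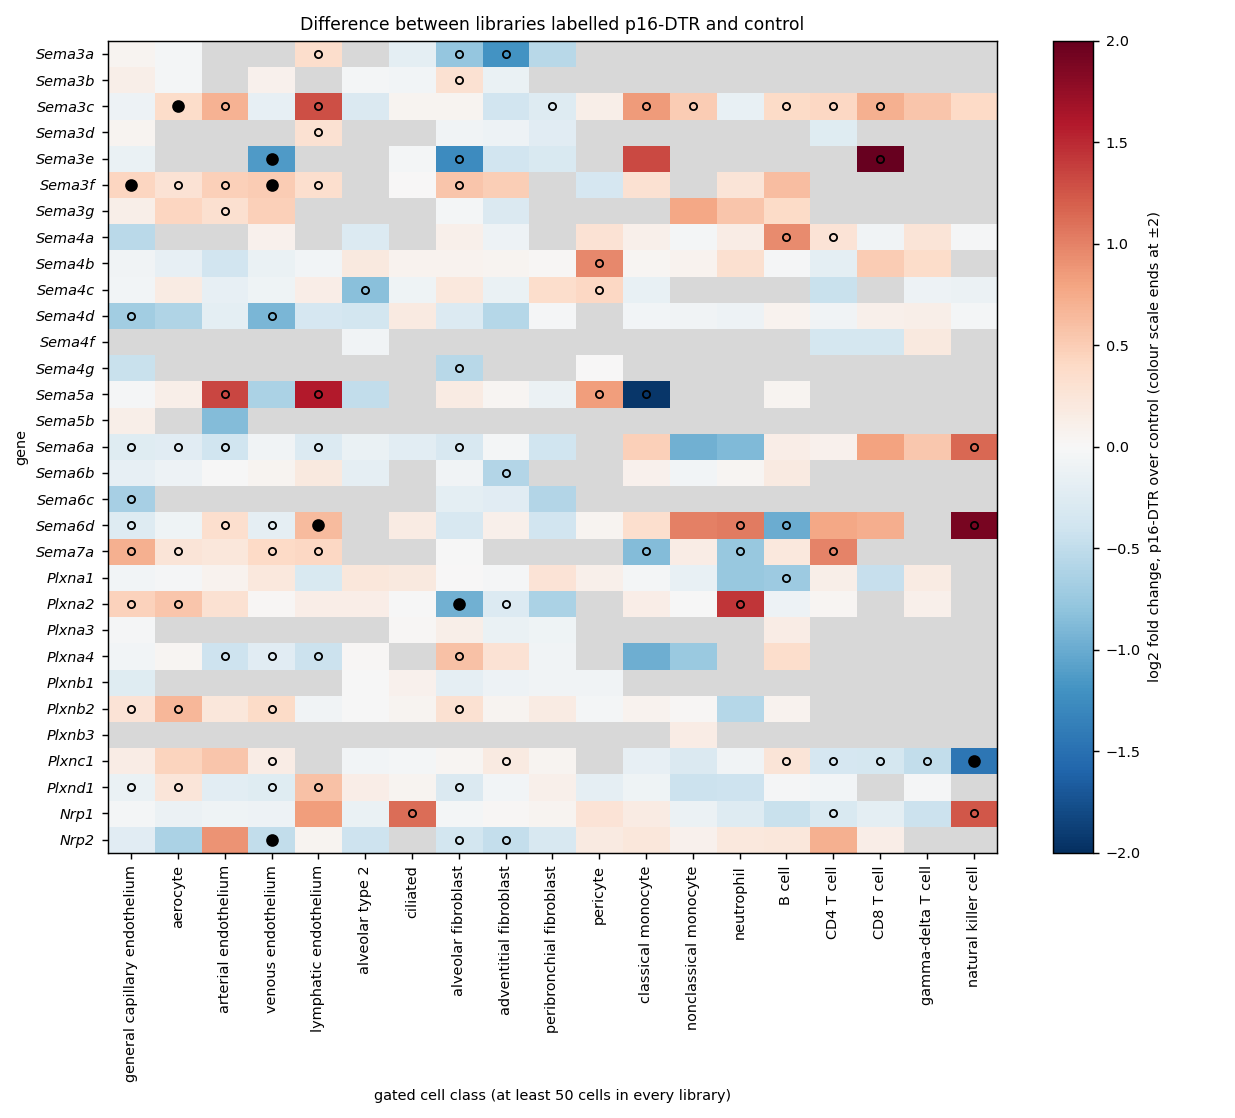
Log2 fold change of p16-DTR-labelled libraries over control by colour, for each family gene (rows) in each of 19 tested classes (columns). Grey marks pairs too low to test, open circles an unadjusted p under 0.05 and filled circles the 8 calls. The Sema3f row is red in 11 of 12 classes, and the filled circle in the natural killer column marks Plxnc1.

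Partners outside the family were followed in a list of 56 genes. It held 17 co-receptors and other receptors, 32 cytoplasmic effectors of plexins and neuropilins and 7 other neuropilin ligands. Of 822 tests, 17 passed (2.07%), 7 higher and 10 lower in p16-DTR-labelled libraries, where 0.652% of tests over all genes passed. They were 5 of 194 for co-receptors and other receptors, 7 of 525 for effectors and 5 of 103 for other ligands. The median log2 difference over the list was 0.01. The list, like the family, was chosen with earlier results of these data known, so an excess over all genes is no independent result. In the further classes where partners passed, all genes passed at 1.45% in CD4 T cells, 1.81% in peribronchial fibroblasts, 0.134% in pericytes and 0.0438% in alveolar type 2 cells.

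Among the ligands, Vegfa, the Nrp1 ligand that drives vessel growth, fell in natural killer cells and rose in veins. Natural killer cells held 96.4, 79.3 and 66.5 UPM in p16-DTR-labelled libraries and 215.1, 147.6 and 162.3 in control (-1.13 ± 0.16, SE, log2, edgeR adjusted p = 0.00652). Veins held 171.8, 183.5 and 201.1 against 118.1, 131.6 and 114.1 (0.64 ± 0.09, adjusted p = 0.00958). Tgfb1, a cytokine that neuropilins also bind, fell in CD4 T cells by 0.49 ± 0.07 on the log2 scale (adjusted p = 0.0194).

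Among co-receptors and other receptors, Flt1, a VEGF receptor, rose in pericytes from 60.8, 53.2 and 81.1 UPM in control to 132.1, 189.3 and 214.5 (1.45 ± 0.19, SE, log2, edgeR adjusted p = 0.0117). Itga1, the collagen-binding integrin subunit, rose in CD4 T cells by 1.00 ± 0.17 (adjusted p = 0.0358). Among effectors, Limk1, the kinase that inactivates cofilin, rose in peribronchial fibroblasts (1.28 ± 0.23, adjusted p = 0.0257), and Mical2, an actin oxidase, rose in veins (0.60 ± 0.12, adjusted p = 0.0323). Fes, a kinase, fell in CD4 T cells by 1.64 ± 0.25 (adjusted p = 0.0259), as did Arhgef11 by 0.54 ± 0.09 (adjusted p = 0.0377). Rnd3 fell in general capillary cells by 0.90 ± 0.12 (adjusted p = 0.0348).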

How the data were processed

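Counts of UMIs per gene and barcode were used as deposited by the authors, raw and without normalization, from Cell Ranger 8.0.1 on mm10, per the submitters' processing notes; the annotation is not given in the sources used here. Barcodes with at least 300 genes, 500 UMIs and at most 15% mitochondrial UMIs were kept, and 5574 predicted doublets were left out. Cells were gated on marker scores (lineage score at least 0.2, class score at least 0.3 and 0.1 above the next class), with family genes in no marker list. Leiden clusters (leidenalg 0.10.2) gave the same class for 96.73% of cells named by both. Counts were summed per library and class and tested with edgeR 4.0.16 in R 4.3.3 (quasi-likelihood, filterByExpr, TMM, group term, Benjamini-Hochberg over all genes of a class at 0.05). Paired classes and differences between a class and all other cells used the library as a block. DESeq2 1.42.0 was an alternative. Levels in UPM use raw class totals. The scripts were tested on simulated data. Of the features, 30934 matched GENCODE M21 on GRCm38, the source of positions.

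Family members, markers and the partner list were chosen with earlier results of these data known. Genes were named when called (partners: the 10 pairs of smallest adjusted p), with the highest class of every member; Cdkn2a and pairs near the threshold were added, the latter after their values were seen. The labels do not say how mice were allocated, and 1 library per mouse with 3 mice per group limits precision. Fewer than 50 cells in a library kept 3 of 12 listed pairs untested: alveolar type 1 and 2, the 2 macrophage classes and the 2 conventional dendritic classes.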

Additional observations from a re-analysis of the deposited data

Results flagged for a closer look

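In 6 cases the difference between the labelled groups was itself different in a cell class and in all other retained cells of the same libraries (edgeR quasi-likelihood interaction, adjusted over all genes). They came from 186 tests of family genes (3.23%), against 0.36% over all genes, in classes chosen for a call of a family gene. Plxnc1 in natural killer cells differed by -1.40 on the log2 scale (adjusted p = 1.99e-07), while all other cells averaged 86.8 and 90.9 UPM in p16-DTR-labelled libraries and control. In the same cells Sema6a differed by 1.16 (adjusted p = 0.00722), with 42.7, 63.6 and 24.1 UPM in p16-DTR-labelled libraries and 19.2, 9.57 and 24.0 in control, while all other cells averaged 259.8 and 284.5. Sema6d there differed by 1.82 (adjusted p = 0.0277) on 55 and 12 UMIs in all, while all other cells averaged 126.1 and 127.2 UPM. The difference did not pass without p16-DTR replicate 1 (0.0669) or control replicate 3 (0.0700). In Leiden classes it shrank to 0.72 and did not pass (0.580). Within natural killer cells alone neither Sema6a (0.214) nor Sema6d (0.114) was called by edgeR.

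In lymphatic endothelium Sema3a differed by 1.59 (edgeR adjusted p = 0.00478): other cells averaged 4.49 UPM in p16-DTR-labelled libraries and 10.8 in control, and the lymphatic class averaged 694.2 and 543.8. Within lymphatic endothelium alone the groups overlapped and Sema3a was not called (0.35 ± 0.14, SE, log2, adjusted p = 0.322, edgeR). Alveolar type 1 cells, which hold the highest Sema3a level and are among the other cells, numbered 28, 23 and 24 in p16-DTR-labelled libraries and 33, 56 and 63 in control, and their part in the result was not tested. Plxnd1 differed there by 0.76 (adjusted p = 0.0280), and did not pass without p16-DTR replicate 3 (0.0818). Sema4d in venous endothelium differed by -1.20 (adjusted p = 0.0406) at 1.84 and 3.55 UPM, from 38 and 86 UMIs. All other cells together averaged 70.4 and 59.4 UPM, the opposite direction, although Sema4d was lower in 14 of 18 classes (above). A sum over all other cells also moves with cell numbers per class. The part of these numbers, and of free RNA at levels as low as this or as Sema6d in natural killer cells, was not tested. Sema4d was not called within veins alone (0.109). The difference did not pass without p16-DTR replicate 1 (0.117), 2 (0.0904) or 3 (0.148) or control replicate 2 (0.0631). With doublets kept, Sema3a (0.0889), Plxnd1 (0.152) and Sema4d did not pass. In Leiden classes Plxnd1 and Sema4d (0.635) did not pass, and the Sema4d difference shrank to -0.53.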

How the results depend on the processing

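The 8 calls of family genes between the labelled groups became 22 with DESeq2 and 33 with no filter on low counts (578 tests in place of 360), and 2 to 7 with 1 library left out; 2 were called without control replicate 1, 4 without p16-DTR replicate 3 or control replicate 3 and 5 without p16-DTR replicate 2. The background moved too, to 2.43% with DESeq2, 2.05% with no filter and 0.11% without control replicate 1. Over all cells, DESeq2 called 5 genes (11.9% of all genes) where edgeR called 0. The 17 calls of partner genes became 37 with DESeq2 and 46 with no filter, and 2 to 12 with a library left out. Of the 8 named calls, 5 passed with the replicate number as a replicate block, and 2 to 6 when a library was left out; Nrp2 in veins (0.0842), Sema3f in general capillary cells (0.0653) and Sema3c in aerocytes were lost under the block. Whether the numbers pair the mice cannot be decided from 3 libraries per group. Same-number correlations of deviations from group means were 0.44, -0.0933 and 0.355, and different-number ones ran from -0.511 to 0.203. The 6 differences between a class and other cells became 17 with no filter and 3 with doublets kept, and 7 to 13 with a library left out, alternatives chosen after seeing the data. Calls between paired classes stayed within 1.5 times of 146. Of single values under alternatives, 137 kept their side of the threshold, 47 no longer passed and 0 reversed. Precision is limited by 3 mice per group.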
